A study of Mus musculus with 7 samples.

Results

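The major urinary protein (Mup) genes were described here in livers of fasted SHIVA and WT mice. The members are Mup1, Mup2, Mup3, Mup4, Mup5, Mup6 and Mup20, and a member's probe is any non-control array probe whose name in the files, or whose symbol after its transcript accession was matched to current annotation, is among these 7 genes. This gave 8 probes for 6 of the 7 genes, of 55681 probes on the array. No probe carried the name Mup1, but its transcripts were among those listed for 4 probes, of which 1 is the Mup2 probe. The genes were picked because their signals differed between these same genotypes, so the member values below are a description with no test of their own.

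The study compared liver RNA of female C57BL/6 mice aged 8 to 12 weeks, all fasted for 24 hours before harvest. 3 mice were WT and 4 were SHIVA, a line made by ENU mutagenesis that is heterozygous for a missense change in the HMG box, the DNA-binding domain, of the transcription factor Sox17. Both genotypes share strain, sex, age range and fasting, and no fed mice or males are among the 7 arrays. The mutation is in the germline and so present in every cell type, and each mouse gave 1 single-colour Agilent array. In whole liver, less RNA per cell and fewer cells making that RNA cannot be told apart.

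Major urinary proteins are small secreted lipocalins, barrel-shaped carriers that bind volatile pheromones. Hepatocytes make most of them, and they pass through the blood into urine, where they release scent slowly. The genes form a tandem array of near-identical copies and pseudogenes, their liver expression is known to be higher in males, and it is known to depend on pulses of growth hormone and on the nutritional state. Members differ in where they are best known: Mup20, also called darcin, is a male scent protein that attracts females, Mup4 is known from nasal and lacrimal glands, Mup5 from salivary glands, and the nearly identical central copies from liver.

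The sequences of the probes matter here because paralogs can bind the same probe. All 25 probes of the family, the 8 member probes and 17 others, lie between 59969824 and 61808925 of chromosome 4 on build mm9. The Mup3 probe (chr4:61745794-61745853, minus strand) and the Mup6 probe (chr4:60018835-60018894, plus strand) cover the same 60 bases near the end of the coding part, as do 3 probes for Ensembl transcripts of the cluster that have no gene symbol in the annotation used. They are shown to make the distance between paralogs visible, with capitals where a base differs from the Mup3 probe.
Mup3: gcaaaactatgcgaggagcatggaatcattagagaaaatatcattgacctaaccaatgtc
Mup6: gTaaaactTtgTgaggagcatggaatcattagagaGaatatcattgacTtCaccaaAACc
ENSMUST00000107490: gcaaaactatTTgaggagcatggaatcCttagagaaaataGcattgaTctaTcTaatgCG
ENSMUST00000107492: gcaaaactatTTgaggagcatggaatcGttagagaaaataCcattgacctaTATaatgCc
ENSMUST00000107481: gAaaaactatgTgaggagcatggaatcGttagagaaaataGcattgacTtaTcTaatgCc
The Mup6 probe was identical to the Mup3 probe at 51 of 60 bases, and the 3 Ensembl probes at 51 or 52 of 60. The Mup20 probe that starts at base 314 of its transcript (chr4:61713671-61713730, minus strand) shares its window with the probe for LOC635091, a predicted gene of the cluster, and capitals mark where the latter differs.
Mup20: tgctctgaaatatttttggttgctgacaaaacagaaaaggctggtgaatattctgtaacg
LOC635091: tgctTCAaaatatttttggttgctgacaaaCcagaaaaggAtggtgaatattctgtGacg
These probes were identical at 54 of 60 bases. The Mup5 probe (chr4:61496097-61496156, minus strand) starts at base 58 of its transcript with the start codon, in capitals, and so covers the secretion signal of the protein.
Mup5: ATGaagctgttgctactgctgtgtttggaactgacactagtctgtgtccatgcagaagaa
Over 32 of its bases it overlapped the probe for the pseudogene Mup-ps15, with 27 identical. The remaining member probes are for Mup2 at base 680 (chr4:60149741-60149800), for Mup4 at bases 95 (chr4:59973383-59973442) and 669 (chr4:59969824-59969883), and for Mup20 at base 688 (chr4:61711407-61711466), all on the minus strand. The files list transcripts of more than 1 named Mup gene for 2 member probes, Mup1 beside Mup2 and Mup4 beside Mup6, so a value is that of the probe and not of a single paralog. 4 member probes, for Mup3, Mup5 and the pair for Mup4, were listed for 1 Mup gene only. The 2 probes for Mup20 each list 3 transcripts, of which 2 are not in the annotation used.

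Values are quantile-normalized log2 intensities, in which a difference of 1 is a doubling; they rank samples for a given probe and not genes against each other. The Mup2 probe gave 16.40, 16.07 and 15.88 in WT replicates 1 to 3 and 14.56, 14.21, 14.65 and 14.33 in SHIVA replicates 1 to 4. The genotypes did not overlap, and the SHIVA mean was lower by a log2 fold change of -1.68 ± 0.18 (SE), or 3.21-fold. The Mup5 probe gave 16.96, 16.74 and 16.91 in WT against 15.36, 14.51, 15.36 and 15.09 in SHIVA. Again every SHIVA liver lay under every WT liver, with a log2 fold change of -1.79 ± 0.23 (SE), or 3.46-fold. The Mup6 probe gave 8.22, 7.84 and 7.62 in WT against 6.31, 5.54, 6.17 and 6.12 in SHIVA. Its log2 fold change was the largest among member probes tested, -1.86 ± 0.23 (SE), or 3.62-fold, but it depended on how background was treated: with normexp correction it was -1.18 and on the deposited value table -1.43.

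The 2 probes for Mup20 gave different pictures. The probe at base 314 gave 16.42, 16.58 and 16.23 in WT and 15.26, 14.75, 15.38 and 15.12 in SHIVA. These groups stood apart, with a log2 fold change of -1.28 ± 0.19 (SE), or 2.44-fold. The probe at base 688 gave 13.99, 13.41 and 14.07 in WT and 13.41, 12.60, 13.94 and 13.76 in SHIVA. Here the genotypes overlapped, since 3 of the 4 SHIVA livers were within the WT range, and the log2 fold change was -0.39 ± 0.33 (SE). It was -0.12 without SHIVA replicate 2 and -0.60 without WT replicate 2. The latter probe overlaps the Mup4 probe at base 669 over 52 bases, of which 45 are identical.

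The Mup3 probe gave 14.91, 14.56 and 14.75 in WT and 13.97, 12.94, 14.05 and 13.48 in SHIVA. The genotypes were apart by 0.51 at their closest mice, with a log2 fold change of -1.13 ± 0.27 (SE), or 2.19-fold. The Mup4 probe at base 669 gave 16.57, 16.83 and 16.77 in WT and 16.17, 15.65, 16.44 and 16.10 in SHIVA. The gap between the closest mice was 0.13, and the log2 fold change was -0.63 ± 0.20 (SE), or 1.55-fold. The other Mup4 probe, at base 95, was well above background on 2 of 3 WT arrays and on none of the 4 SHIVA arrays. Its signal was 4.46, 4.21 and 3.40 in WT and 2.39, 1.50, 1.53 and 1.54 in SHIVA, and set against the lowest signal well above background on the SHIVA arrays the WT mean was at least 1.65-fold higher. This probe was left out of the fit, which asked for signal well above background on 3 of the 7 arrays.

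**Figure D1:**
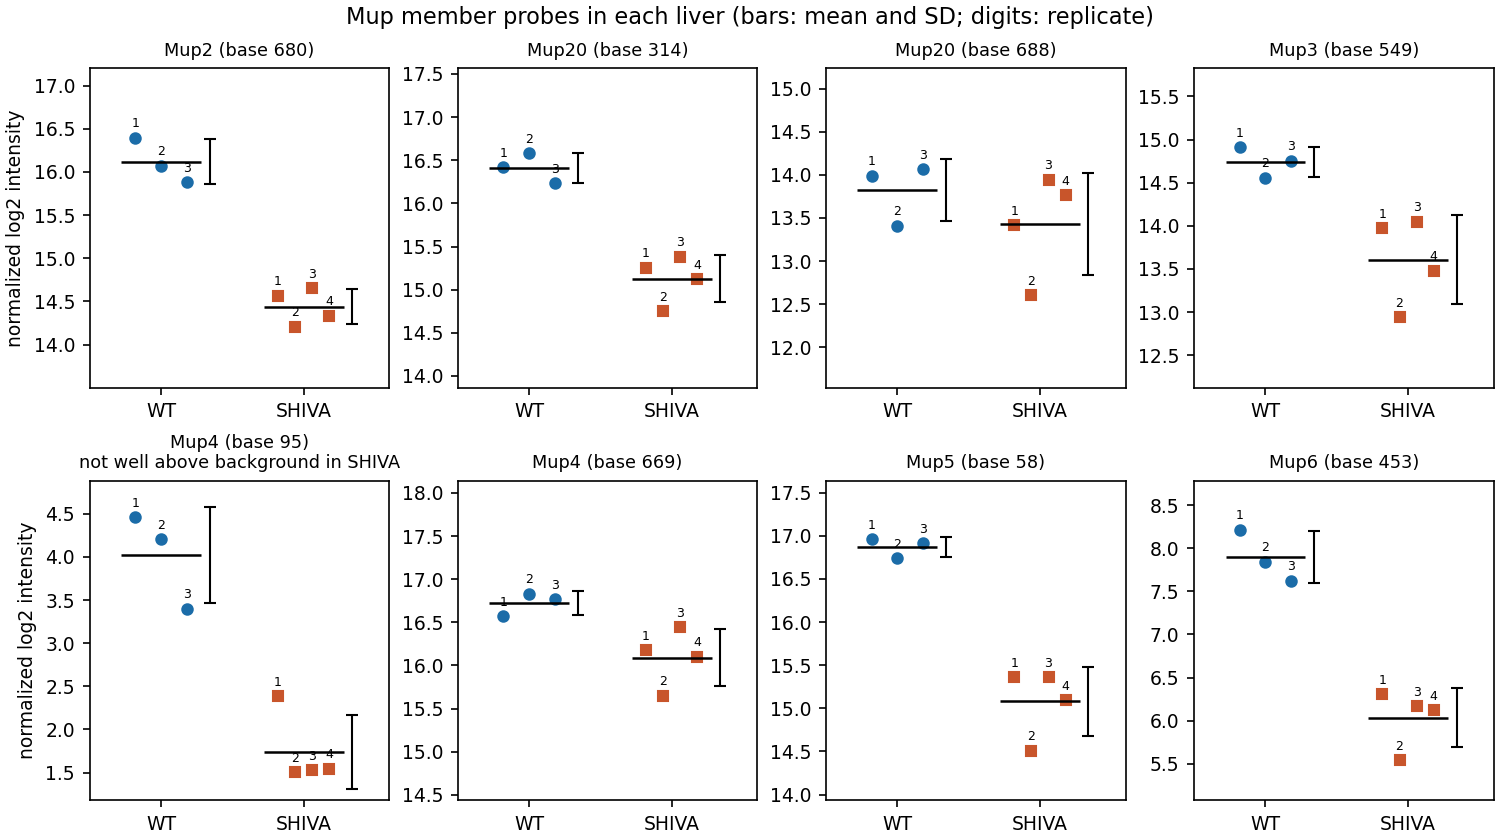
Normalized log2 intensity of the 8 Mup member probes in each WT (circles) and SHIVA (squares) liver, with digits for the replicate, a line for the mean and a bar for the SD; each panel spans the same number of log2 units around its own values. The genotypes overlap for the Mup20 probe at base 688 and for no other member probe, and SHIVA replicate 2 is the lowest SHIVA liver for the 7 probes tested.

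Over the 7 member probes tested, the median log2 fold change was -1.28, from -1.86 to -0.39, beside a median of -0.01 over all 26258 probes tested. By limma's moderated test with Benjamini-Hochberg adjustment over all probes, 4 of the 7 were called lower in SHIVA, where 0.126% of all probes tested were called lower. Without overlap between genotypes were 6 of the 7, where 6.15% of all probes tested were lower without overlap. The count of 4 was 0 without WT replicate 1 or 2 or SHIVA replicate 1, and 3, 1 and 2 without SHIVA replicates 2, 3 and 4. Since the same contrast picked the genes, nothing is read from these counts. The 7 probes averaged 14.7 ± 0.11 in WT (SD over 3 mice) and 13.4 ± 0.36 in SHIVA livers (SD over 4 mice).

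The rest of the family had lower signals in SHIVA as well. All 17 other probes of the cluster were lower in SHIVA without overlap between genotypes, with log2 fold changes from -1.99 to -0.44 and a median of -1.13. Over all probes tested, 6.15% were lower without overlap. By limma 3 of the 17 were called lower, where 0.126% of all probes were, and 0 were called with the replicate block, without the filter on dim probes, or without WT replicate 1, WT replicate 2, SHIVA replicate 1 or SHIVA replicate 3. Without SHIVA replicate 4, 1 was called, by the methods' t-test 0 were, and from 5 to 7 were with mean signal, normexp, the authors' values, signal on all arrays or array weights. Among the central liver copies, the Mup9 probe at base 414, for which the files also list Mup1, Mup2 and Mup19 transcripts, gave 18.33, 18.28 and 18.26 in WT and 17.40, 16.93, 17.56 and 17.27 in SHIVA, with means of 18.29 and 17.29 and an SE of their difference of 0.18. The pair of Mup19 probes, also listed for Mup1, had log2 fold changes of -0.50 ± 0.17 (SE) at base 684 and -0.44 ± 0.16 (SE) at base 739. The values closest to Mup1 in these data are thus 4 shared probes that ranged from -1.68 to -0.44. Among them, Mup9 at base 414 and Mup19 at base 684 had WT means of 18.29 and 18.25, near the top of the normalized scale. Quantile normalization leaves such bright probes little room, so the sizes of these differences are uncertain. Mup21, at the far end of the cluster, had -1.05 ± 0.27 (SE) and Mup18 had -1.38 ± 0.31 (SE). The other Mup9 probe, at base 632, had -1.63 ± 0.32 (SE). Signals of pseudogene probes fell in the same range, from -0.70 for Mup-ps12 at base 715 to -1.99 for Mup-ps15. These probes share sequence with the members and are not independent of them.

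**Figure D2:**
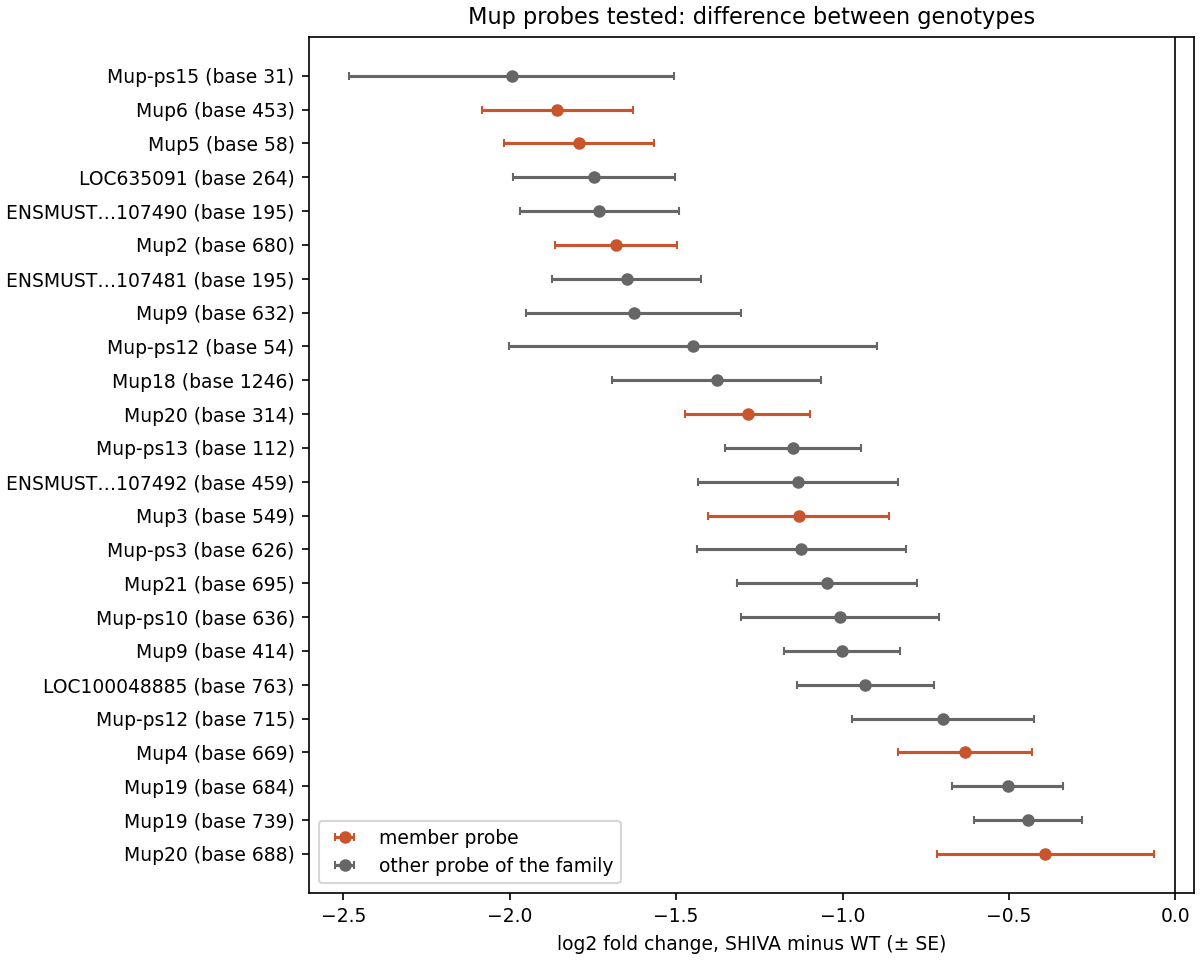
Log2 fold change (SHIVA minus WT) with its SE for the 24 Mup family probes tested, member probes in orange and others in grey, ordered by size; the number after a name is the base of the transcript at which the probe starts. All 24 lie under 0, from -1.99 for Mup-ps15 to -0.39 for Mup20 at base 688.

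Grouped by shared window (an overlap of at least 30 bases with at least 70% identity), the family probes differed in the size of the difference. The 5 probes at the end of the coding part, printed above, had log2 fold changes from -1.86 to -1.13. The 5 probes further along the transcript that overlap each other, for Mup20 at base 688, Mup4 at base 669, Mup19 at base 684 and the pseudogenes Mup-ps10 and Mup-ps3, had values from -1.12 to -0.39. The printed pair for Mup20 and LOC635091 had -1.28 and -1.75. The overlapping pair for Mup5 and Mup-ps15 had -1.79 and -1.99. The group of LOC100048885 at base 763, Mup-ps12 at base 715 and Mup19 at base 739 had values from -0.93 to -0.44. Whether these window groups differ was not tested, since their probes share targets.

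The spread between mice of 1 genotype was not small for every member. The residual SD of the Mup2 probe was 0.23, at the 38.6 percentile of all probes tested, and that of the Mup20 probe at base 688 was 0.51, at the 87.9 percentile. The median over the 7 member probes was 0.32, beside 0.27 over all probes. SHIVA mice varied more than WT mice for 6 of the 7 member probes, with median SDs of 0.34 and 0.18, whereas the SD was higher in SHIVA for 44.7% of all probes.

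A large part of that spread came with a single mouse. SHIVA replicate 2 was the lowest SHIVA liver for 7 of 7 member probes and for 17 of 17 other family probes, and it was the lowest SHIVA liver for 31.6% of all probes. Averaged over the member probes it lay 0.52 under the SHIVA mean, while SHIVA replicates 1, 3 and 4 lay 0.18, 0.31 and 0.03 above it. The median log2 fold change of the member probes was -1.16 without this mouse, and the median residual SD fell to 0.22. The same mouse had the highest share of probes well above background, 48.7%, where the others had 44.5% to 46.6%. WT mice had no such order, each being the lowest WT liver for 1 to 3 of the 7 member probes.

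**Figure D3:**
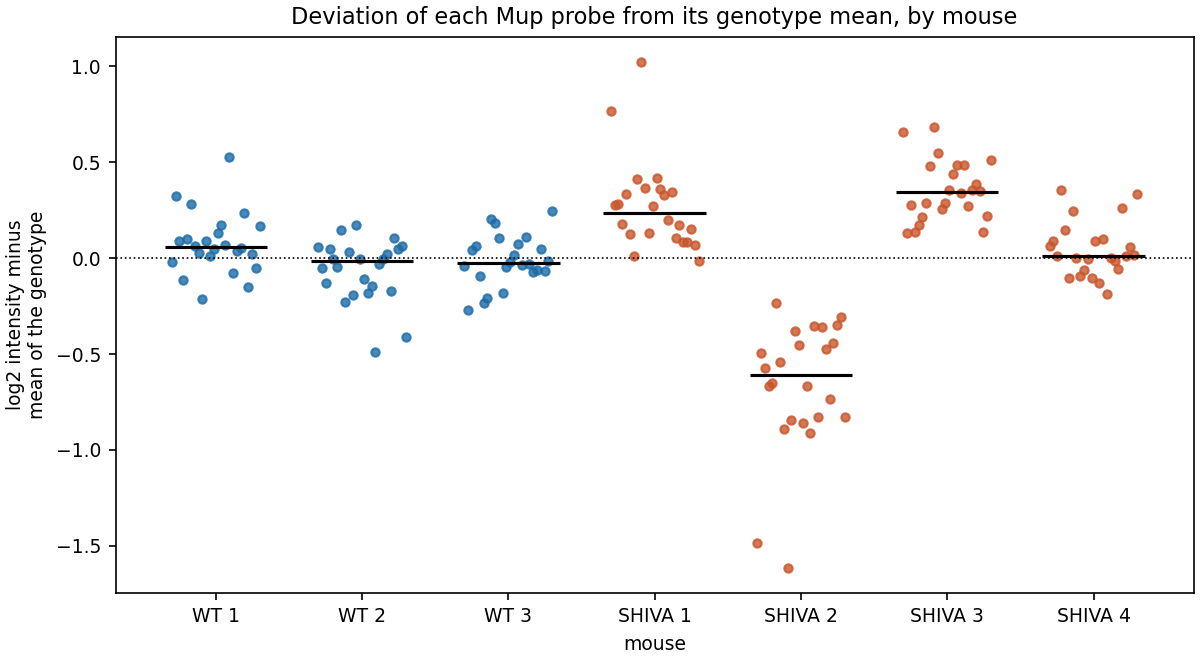
Log2 intensity of each of the 24 Mup family probes tested, minus the mean of its genotype, by mouse; points are probes and lines their median. All 24 probes of SHIVA replicate 2 lie under 0, and the other SHIVA livers lie mostly above it.

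Of 10 other lipocalins made in liver that were tested, 0 were called by limma in either direction, where 0.375% of all genes tested were called. Their median log2 fold change was 0.14, and 2 had an unadjusted p under 0.05 by limma and 1 by the methods' t-test. Over all 20002 genes tested, 2667 had an unadjusted p under 0.05 by limma and 2299 by the methods' t-test. The unadjusted counts of the lists below are to be read beside these. None of the 10 lipocalins was free of overlap, so the following were chosen after their values were seen. Lcn2, which binds bacterial siderophores and is induced in inflammation, gave 11.56, 10.83 and 11.23 in WT and 12.71, 14.52, 12.17 and 11.31 in SHIVA. Orm2, an acute-phase carrier protein, gave 14.31, 13.99 and 14.46 in WT and 14.79, 15.68, 14.51 and 14.08 in SHIVA. Both were highest in SHIVA replicate 2, the mouse in which the Mup probes were lowest, as were Ambp, Orm1 and Orm3. The rest of the list did not peak in that mouse. Of the SHIVA livers it was the lowest for Apom and for Ptgds, whose log2 fold change was the largest of the list (1.51). Rbp4, Apod and C8g were highest in other mice. The part of these lipocalins in the Mup values, or of Mup in theirs, was not tested.

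Other abundant secreted liver proteins had, as a list, a median near 0. Of 26 tested, 0 were called by limma (6 at an unadjusted p under 0.05, and 7 by the methods' t-test). Without overlap, 3 were higher and 4 lower in SHIVA, where 6.14% and 6.02% of all genes were. The median log2 fold change was 0.04, from -0.35 to 0.68. That median was -0.033 under 75th percentile scaling. Albumin (Alb) gave a log2 fold change of 0.03 ± 0.13 (SE), which had the opposite sign under 75th percentile scaling (-0.10). Alb lay between 18.26 and 18.39 in all 7 livers, near the top of the normalized scale, as did Apoa2, Serpina1a and Serpina1c. Quantile normalization gives every array the same set of values, so a probe this bright has little room to rise. Values near 0 for such probes are thus no measure of constant RNA. Hemopexin (Hpx), which binds free heme, had 0.47 ± 0.17 (SE, adjusted p = 0.283, limma) and kininogen (Kng1) 0.40 ± 0.16 (SE, adjusted p = 0.326, limma), both higher in SHIVA without overlap. Transthyretin (Ttr), the carrier of thyroid hormone and retinol-binding protein, had -0.32 ± 0.14 (SE, adjusted p = 0.363, limma), lower in SHIVA without overlap. Of the 8 hepatocyte markers, 0 were called by limma (2 at an unadjusted p under 0.05 by limma and 2 by the methods' t-test), and their mean level was between 16.3 and 16.6 in WT and between 16.2 and 16.5 in SHIVA. The samples are labelled as liver, and hepatocyte markers were bright in all 7 of them.

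Growth hormone acts through its receptor (Ghr) and the kinase Jak2 on the factor Stat5b, and it is a main driver of Mup transcription. Of 20 genes of this pathway tested, 0 were called by limma (6 at an unadjusted p under 0.05, and 5 by the methods' t-test). The median log2 fold change was 0.32, and 5 were higher in SHIVA without overlap, where 6.14% of all genes were. Ghr gave 12.49, 12.22 and 12.48 in WT and 12.42, 12.26, 12.40 and 12.24 in SHIVA, so the genotypes overlapped, with a log2 fold change of -0.07 ± 0.14 (SE), of opposite sign when all its probes were averaged (0.18). Stat5b gave 8.78, 8.95 and 9.36 in WT and 9.64, 9.56, 9.48 and 9.61 in SHIVA. It was higher in every SHIVA liver, with a log2 fold change of 0.54 ± 0.17 (SE, adjusted p = 0.233, limma). Among genes that growth hormone is known to induce, Igf1, the circulating growth factor, had 0.16 ± 0.16 (SE), and Socs2, a feedback inhibitor, had 0.20 ± 0.28 (SE). Neither sign held under all alternatives, since Igf1 was -0.0078 with array weights and Socs2 -0.047 without WT replicate 3. The feedback inhibitor Cish had 0.96 ± 0.25 (SE, adjusted p = 0.183, limma) and Igfbp3, a carrier of Igf1, had 0.86 ± 0.16 (SE, adjusted p = 0.083, limma), both without overlap. Bcl6, a repressor that opposes Stat5b at sex-biased genes, had 0.19 ± 0.36 (SE), which was -0.026 without SHIVA replicate 3. Igfbp3 was called when arrays were weighted by quality (adjusted p = 0.034, limma), and no other of the pathway genes named here was called under any alternative run.

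Of 25 transcription factors tested that are known to act on Mup or other sex-biased liver genes, 1 was called by limma (6 at an unadjusted p under 0.05, and 6 by the methods' t-test), where 0.375% of all genes tested were called. Without overlap, 4 were lower and 2 higher in SHIVA, where 6.02% and 6.14% of all genes were, and the median log2 fold change was -0.23. The called gene was Nr1d1 (Rev-erb alpha), the circadian repressor, with 10.64, 10.23 and 10.57 in WT and 9.57, 8.98, 9.10 and 9.24 in SHIVA and a log2 fold change of -1.26 ± 0.19 (SE, adjusted p = 0.042, limma). That call was lost without WT replicate 1 or 2 or any of the SHIVA mice, with adjusted p values between 0.0676 and 0.201 (limma). Nr1i3 (CAR), a nuclear receptor for foreign compounds, had -0.97 ± 0.16 (SE, adjusted p = 0.0547, limma). All SHIVA livers were under the WT livers for both genes, and Nr1i3 was called under 6 alternatives (mean signal, normexp, the authors' values, signal on all arrays, array weights and without WT replicate 3), with adjusted p values from 0.0162 to 0.0466 (limma). Zhx2, a repressor of several liver genes with a known effect on Mup levels, was well above background on 1 array and was not tested. Sox17, the mutated gene, gave 4.52, 3.41 and 3.92 in WT and 4.62, 4.46, 4.76 and 4.70 in SHIVA, with overlapping genotypes and a log2 fold change of 0.69 ± 0.25 (SE, adjusted p = 0.279, limma). It was well above background in 2 of 3 WT livers, and its difference ranged from 0.094 to 0.97 over the alternatives. A probe for Sox17 mRNA does not check the genotype, because the mutation is a point change.

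Mup genes are among the male-biased genes of mouse liver, so other sex-biased genes were set beside them, all in female livers. Of 17 male-biased genes tested, 1 was called lower by limma, where 0.190% of all genes tested were called lower, and the median log2 fold change was -0.02 (0.053 without WT replicate 3). The called gene was Elovl3, a fatty acid elongase, with 7.14, 7.54 and 6.21 in WT. It was not well above background in any SHIVA liver and at least 12.6-fold higher in WT (adjusted p = 0.000608, limma). It passed the filter on dim probes only through the WT livers, where it was high, so nothing is read from this call. Its difference was -1.48 with normexp, and the call was lost by the methods' t-test (adjusted p = 0.101). With any WT mouse left out, Elovl3 no longer passed the filter. Lower without overlap were also Gna14, a G protein subunit, with -1.35 ± 0.33 (SE, adjusted p = 0.154, limma), and Cyp2d9, a steroid hydroxylase, with -0.82 ± 0.16 (SE, adjusted p = 0.0863, limma). Gna14 was well above background in 2 of 4 SHIVA livers, so its size is uncertain, and it ranged from -1.70 to -0.36 over the alternatives. It was called with array weights (adjusted p = 0.047, limma). Cyp2d9 was called on mean signal, with normexp, on the authors' values and with array weights (adjusted p from 0.0236 to 0.0299, limma). In all, 5 of the 17 were lower and 1 was higher without overlap, where 6.02% and 6.14% of all genes were. At an unadjusted p under 0.05 were 8 of the 17 by limma and 7 by the methods' t-test. Of 27 female-biased genes tested, 0 were called by limma. At an unadjusted p under 0.05 were 12 by limma and 10 by the methods' t-test, beside 2667 and 2299 of all 20002 genes. Without overlap, 7 were higher and 2 lower, where 6.14% and 6.02% of all genes were. The median was 0.21. That median was 0.054 without WT replicate 1 and 0.36 without SHIVA replicate 1. A1bg, a secreted immunoglobulin-domain protein, had 2.79 ± 0.62 (SE, adjusted p = 0.132, limma), Hao2, a peroxisomal oxidase, 2.33 ± 0.57 (SE, adjusted p = 0.15, limma) and Prom1, a membrane protein, 2.22 ± 0.40 (SE, adjusted p = 0.0732, limma). Hao2 was well above background in 2 of 3 WT livers, and its difference was 1.51 without the remaining one, WT replicate 2, 1.23 on the authors' values and 0.88 with normexp. Without WT replicate 3 these 3 genes were called, with adjusted p values from 0.0152 to 0.0459 (limma). With array weights they were called as well (adjusted p from 0.0244 to 0.0411, limma). Hao2 and Prom1 were also called on mean signal and on the authors' values, and Prom1 with signal on all arrays (adjusted p from 0.0249 to 0.0444, limma).

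**Figure D4:**
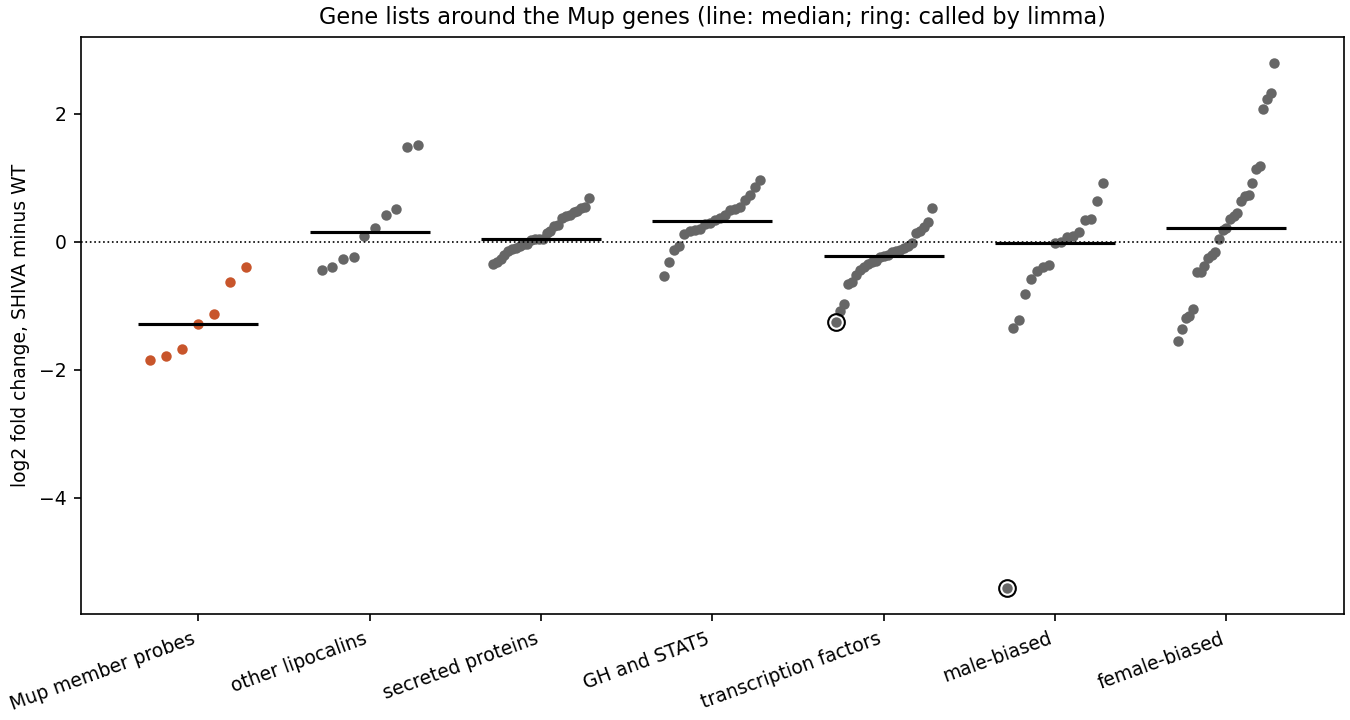
Log2 fold change (SHIVA minus WT) of the 7 Mup member probes tested and of the genes of 6 lists; points are probes (Mup) or genes (lists), lines medians, and rings mark list genes called by limma (Nr1d1 and Elovl3). The Mup median is -1.28, and the medians of the 6 lists lie between -0.23 and 0.32.

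Within 1 Mb on either side of the cluster, 32 genes or transcripts were tested and 0 were called by limma (4 at an unadjusted p under 0.05, and 3 by the methods' t-test), with a median log2 fold change of 0.03 and a range from -0.99 to 1.81. Of the 32, 3 did not overlap between genotypes, where 12.2% of all genes did not: Zfp618, with means of 3.11 in WT and 4.92 in SHIVA (adjusted p = 0.23, limma), Rgs3, with -0.25, and a transcript with no gene name, with 0.59. Zfp618 gave 3.84, 1.52 and 3.96 in WT. Its value in WT replicate 2 lay under the lowest signal well above background on that array (3.54), so the 1.81 is uncertain in size. Nearest below the cluster, Snx30, a sorting nexin, had 0.03 ± 0.17 (SE), and nearest above it, the copper transporter Slc31a2 had 0.24 ± 0.22 (SE). Ambp, itself a lipocalin, sits at the far end of this window and gave 17.29, 17.29 and 17.57 in WT and 17.57, 17.84, 17.48 and 17.48 in SHIVA. Its genotypes overlapped, with a log2 fold change of 0.21 ± 0.16 (SE). These flanking genes were taken by position, and Ambp, Zfp618 and Rgs3 were picked after their values were seen.

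**Figure D5:**
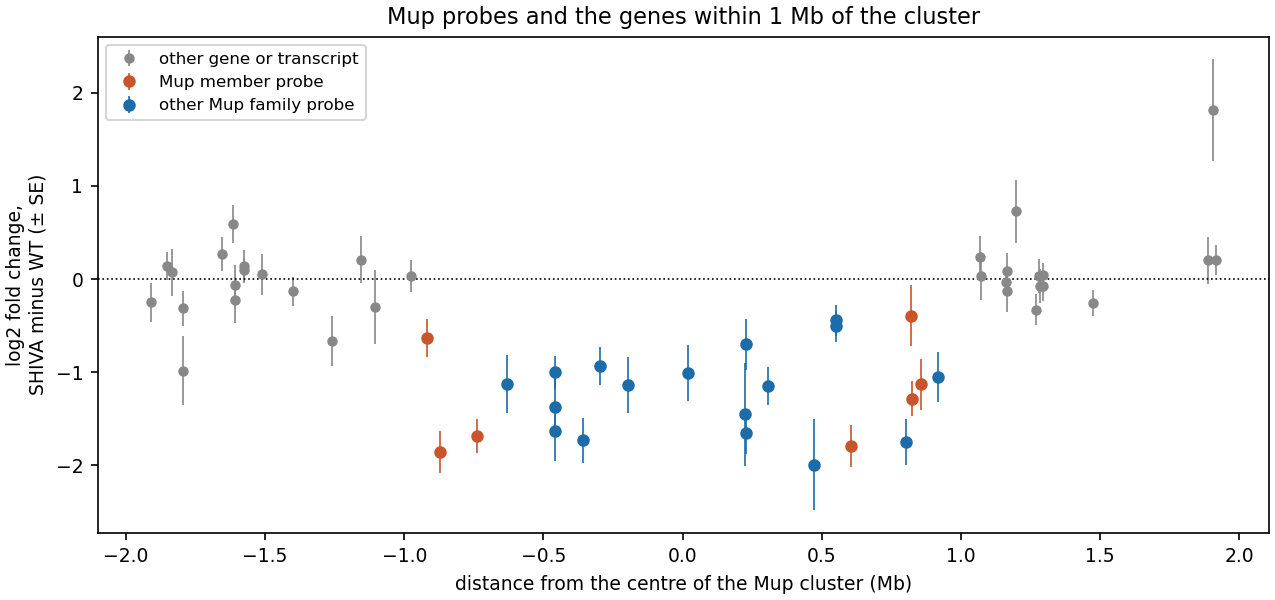
Log2 fold change (SHIVA minus WT) with its SE against distance from the centre of the Mup cluster, for Mup member probes (orange), other Mup family probes (blue) and other genes or transcripts within 1 Mb of the cluster (grey). All 24 Mup probes lie under 0, and the 32 others have a median of 0.03.

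Promoter sequence was at hand for 4 members from RefSeq (build GRCm38.p6), and the 250 bases before the start are shown because the mutated factor belongs to the Sox family, whose proteins bind AACAAT. Capitals mark AACAAT and TATAAA on either strand. The stretches are chr4:60139857-60140106 (Mup2, minus strand), chr4:60003231-60003480 (Mup6, plus strand) and chr4:62087318-62087567 (Mup3, minus strand).
Mup2: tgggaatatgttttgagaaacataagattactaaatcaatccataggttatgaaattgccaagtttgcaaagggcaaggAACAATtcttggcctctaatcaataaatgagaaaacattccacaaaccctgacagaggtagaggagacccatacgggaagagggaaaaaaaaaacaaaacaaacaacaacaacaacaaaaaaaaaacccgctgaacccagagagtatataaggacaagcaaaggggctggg
Mup6: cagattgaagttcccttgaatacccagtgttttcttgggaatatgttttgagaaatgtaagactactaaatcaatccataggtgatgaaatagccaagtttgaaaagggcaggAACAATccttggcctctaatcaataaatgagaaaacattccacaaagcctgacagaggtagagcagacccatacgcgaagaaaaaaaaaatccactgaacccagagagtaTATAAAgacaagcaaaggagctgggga
Mup3: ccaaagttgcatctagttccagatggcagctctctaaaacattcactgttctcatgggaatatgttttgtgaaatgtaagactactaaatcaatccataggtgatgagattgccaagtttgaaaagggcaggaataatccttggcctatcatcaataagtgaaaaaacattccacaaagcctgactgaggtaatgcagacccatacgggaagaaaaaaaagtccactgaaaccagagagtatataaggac
The letters AACAAT were present in the Mup2, Mup4 and Mup6 promoters and not in that of Mup3, and in 9 of 10 promoters of other Mup genes, where 9.42% of all 32851 promoters of this length held them. TATAAA was found for Mup4 and Mup6 and in 0 of 10 promoters of other Mup genes (12.4% of all promoters). AGAACA, letters bound by the glucocorticoid receptor, was found for Mup3 and in 1 of 10 others (16.1%). The STAT motif TTCNNNGAA was found for 0 of 4 members and 0 of 10 others (7.02%). Only these exact letters were searched. Where Mup6 has tatataaa, Mup2 and Mup3 have tatataag, so a missing match does not mean that a TATA box is missing. The Mup4 and Mup6 promoters were 91.6% identical and those of Mup2 and Mup3 74.4%. A match of letters is no evidence of binding, and paralogous promoters are not independent.

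The genes whose signals followed the member average most closely over the 7 mice were Gm4861 (Pearson r = 0.99), Pax2, a developmental transcription factor (0.99), 1110008P14Rik (0.99), Prr5, a partner of the kinase mTOR (0.98), and Gm7049 (0.98). These are descriptions over 7 points that also share the genotype difference, and 212 of 19941 genes compared had r over 0.9. After the genotype means were removed, r was 0.98 for Gm4861, 0.92 for Pax2, 0.93 for 1110008P14Rik, 0.91 for Prr5 and 0.84 for Gm7049. Each of the 5 was lowest in SHIVA replicate 2, as was the member average, so this mouse weighs heavily on these r values. Pax2 gave 9.21, 8.98 and 8.57 in WT and 6.99, 5.88, 7.26 and 7.13 in SHIVA, so SHIVA replicate 2 was lowest here too. Its log2 fold change was -2.10 ± 0.33 (SE, adjusted p = 0.0475, limma) by its brightest probe and -0.66 (adjusted p = 0.23, limma) as the mean of its probes. The call was also lost without WT replicate 1 or 2 or SHIVA replicate 1, 3 or 4.

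Markers of other cells were checked as well. Of 37 tested for Kupffer, endothelial, bile duct, stellate, fat, pancreas acinar, red cell precursor, neutrophil and lymphocyte cells, 0 were called by limma (6 at an unadjusted p under 0.05, and 2 by the methods' t-test). The 6 Kupffer cell markers all had higher means in SHIVA, with a median log2 fold change of 0.43, and their mean level ranged from 9.85 to 11.2 in WT and from 10.46 to 11.56 in SHIVA. Of 5 neutrophil markers, 4 had higher means in SHIVA, and the list mean ranged from 6.13 to 6.87 in WT and from 5.98 to 8.63 in SHIVA. These means include Mpo, named here because its signal was dim in some livers. It gave 1.24, 1.24 and 1.18 in WT and 6.19, 6.98, 6.80 and 1.16 in SHIVA. In WT and in SHIVA replicate 4 it lay under the lowest signal well above background, so it weighs heavily on the list mean. Bile duct markers went the other way, with 3 of 4 lower means in SHIVA and a median of -0.64, and the list mean ranged from 5.75 to 7.001 in WT and from 5.41 to 6.30 in SHIVA. The part of these cell types in the Mup values was not tested. Of the salivary and lacrimal gland markers, 0 of the 5 on the array had signal enough to be tested.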

How the data were processed

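Livers of 3 WT and 4 SHIVA mice were measured on 1 array each. Per the labels, Cy3-labelled RNA was read with Agilent Feature Extraction (10.5.1.1). The deposited processed intensity (linear, detrended within the array, with no local background subtraction per the file headers) of 59305 non-control spots was taken to log2, outlier spots were set aside, arrays were quantile normalized and spots averaged per probe. The value table deposited by the authors (log2, quantile normalized per the methods, column medians 5.256 to 5.259) ranked probes as the raw mean signal did and served as an alternative; its background step is not given in the sources used here. Probes well above background on 3 of 7 arrays were fitted with limma (3.58.1, R 4.3.3), SHIVA minus WT, with calls at an adjusted p under 0.05; a gene is its brightest probe. The methods' t-test is an equal-variance test on the same values. 26413 of 55681 probes were named by accession. No spot was saturated. On simulated data for 19961 genes, 89.5% of genes changed by a log2 of 2 and 34.5% changed by 1 were recovered. The number of arrays limits the precision.

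Members and lists were chosen with earlier results of these data known. Named genes were all Mup genes, called list genes, the 3 non-overlapping genes of each list with the largest change, Sox17, Ghr, Stat5b, Igf1, Socs2, Zhx2, Bcl6, the 5 genes most like the members and hepatocyte markers; others are marked, and 1 gene that the rule names is not reported here. All arrays sat on 1 slide, WT in row 1 and SHIVA in row 2, so row and genotype cannot be told apart. The replicate number was also the column on the slide, so the replicate block is a block by column. SHIVA replicate 4 had no WT array in its column.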

Additional observations from a re-analysis of the deposited data

Results flagged for a closer look

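Among 55 sets of SHIVA values examined, 2 held a mouse far from the other 3, where chance gives about 2.75. None was a Mup probe. Tat, a liver enzyme of tyrosine breakdown, was 15.4 in SHIVA replicate 2 against 15.9 to 16.0 in the others. Cyp2d9 was 11.2 in SHIVA replicate 4 against 11.01 to 11.04 in the other SHIVA mice.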

How the results depend on the processing

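All 360 values of the 24 Mup probes tested, under 15 alternatives, stayed under 0. The median of the member probes ranged from -1.37 to -1.16 when each mouse was left out, and was -1.14 over all family probes, an alternative chosen after seeing the data. Their median spread ranged from 0.218 to 0.358 when each mouse was left out. Counts over all genes and probes were far less stable. Instead of 75 genes and 61 probes called, mean signal without background correction gave 141 and 163, 141 and 164 were called on the authors' values, no filter gave 13 and 14, array weights 367 and 484, and the methods' t-test 0 and 0 (2299 and 2940 at an unadjusted p under 0.05, against 2667 and 3408 by limma); requiring signal on all arrays gave 109 probes. With each mouse left out they ranged from 3 to 416 genes and from 3 to 564 probes, lowest without WT replicate 1 and highest without WT replicate 3. The labels state no pairing of the mice, but same-numbered arrays shared a column of the slide. Same-numbered deviations correlated at -0.05, 0.03 and 0.23. WT replicate 3 correlated best with its own number, and WT replicates 1 and 2 with SHIVA replicates 2 and 4. These few values cannot settle whether the numbers pair the arrays. With the replicate block, 32 genes, 12 probes and 1 list gene were called. Of the 125 list genes, 2 were called, against 7 with mean signal and on the authors' values, 4 with normexp, 1 without the filter, 13 with array weights and 0 by the methods' t-test, and from 0 to 9 with each mouse left out. Signs turned, with no call, for Alb (-0.10) and Serpina1a (-0.083) under 75th percentile scaling and for Ghr (0.18) with probes averaged. Array weights turned Alb (-0.017), Ghr (0.046) and Igf1 (-0.0078), and Serpina1a was -0.00049 on mean signal and -0.00048 with normexp. Leaving out 1 mouse turned Socs2 (-0.047, WT replicate 3), Bcl6 (-0.026, SHIVA replicate 3), Cps1 (-0.047, WT replicate 1) and the male-biased median (0.053, WT replicate 3). The median of the other secreted proteins was -0.033 under 75th percentile scaling. Over all named genes and alternatives, 27 values gained a call and 19 lost 1. Of the 7 member probes, 0 were called with the replicate block, and 0 of 8 without the filter. The cause was not tested.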
